A study of Arabidopsis thaliana with 4 samples.

Results

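The transcripts described here are the most abundant steady ones of the Arabidopsis thaliana shoot apex. A probe set, the group of short probes that together report 1 transcript, was called steady when the highest of its 4 array values was at most 1.5 times the lowest. Of 22669 probe sets that are no control and are not paired with a plastid-encoded gene, 11572 were steady (51.0%), and the 200 of these with the highest mean intensity over the 4 arrays are the members. The members were chosen by the levels on these same arrays, so their abundance and their steadiness are given as a description, with no test.

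Shoot apices, which hold the shoot meristem and its youngest organ primordia, were dissected from Col-0 plants, the wild type, and their total RNA was hybridised to 1 array per sample. Plants of the SD30_LD7 group, called shifted here, had 30 short days and then 7 long days (2 arrays). Plants of the SD30 group, called short day plants, had 30 short days only (2 arrays). Shifted plants were also 7 days older at dissection, so day length and age cannot be told apart. Nothing in the labels tells if both samples of a group were grown apart, so a p-value covers only how far these samples spread, and that spread may be technical.

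Every cell translates its messenger RNA on cytosolic ribosomes, which are built from ribosomal RNA and a large set of ribosomal proteins. In plants each of these proteins is usually encoded by several near-identical genes. The small subunit reads the messenger, the large subunit joins the amino acids, and the acidic P-stalk on the large subunit recruits the translation factors. Ribosomal proteins, translation elongation factors, histones, tubulins and enzymes of glycolysis are widely known as abundant transcripts of dividing plant tissue, and several serve as steady references in expression assays.

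The 4 arrays had been brought to a common level by the authors, with trimmed means between 500.033 and 500.036. Across 15922 probe sets, arrays of the same group correlated at 0.985 to 0.987 and arrays of different groups at 0.942 to 0.948, as a description over probe sets that are not independent replicates. Of the marker lists, 2 of 8 shoot meristem genes were measured, with summed intensities of 1129 and 1251 on the shifted arrays and 1093 and 1090 on the short day arrays. The root list had 1 of 3 genes measured, PYK10, at 224 and 276 on the shifted arrays against 2380 and 2396 on the short day arrays. Of the green leaf list 2 of 5 were measured, summing to 3880 and 3741 on the shifted arrays and 5537 and 3917 on the short day arrays. Of these LHCB4.3 was called higher after the shift (435 and 413 against 127 and 132), and RCA was not called (limma adjusted p = 0.085). Of the epidermis list 3 of 6 were measured, summing to 497 and 520 on the shifted arrays and 634 and 563 on the short day arrays, with SPCH called lower (limma adjusted p = 0.026). Of the young primordium list 1 of 4 was measured, YAB3, at 911 and 889 on the shifted arrays and 997 and 1015 on the short day arrays. None of the 3 vascular genes was measured (0 of 3). The part of other cell types in the values below was not tested. In such bulk samples, fewer cells of a type and less RNA per cell cannot be told apart.

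The members' mean intensities ran from 7163 to 18476, with a median of 9449, against a median of 215 over all 22669 eligible probe sets. Their ratio of highest to lowest value ran from 1.05 to 1.49, with a median of 1.22, against a median of 1.48 over all eligible probe sets. In 85 members the ratio was at most 1.2, in 6 at most 1.1, and in 13 above 1.4. The standard deviation over the 4 arrays was 2.28% to 18.8% of the mean, with a median of 8.64%. Being 0.879% of the probe sets, the members carried 14.7% and 12.9% of the summed intensity on the shifted arrays, and 14.2% and 13.6% on the short day arrays. Probe sets differ in how brightly they report a transcript, so the rank is one of signal and not of transcript number.

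**Figure D1:**
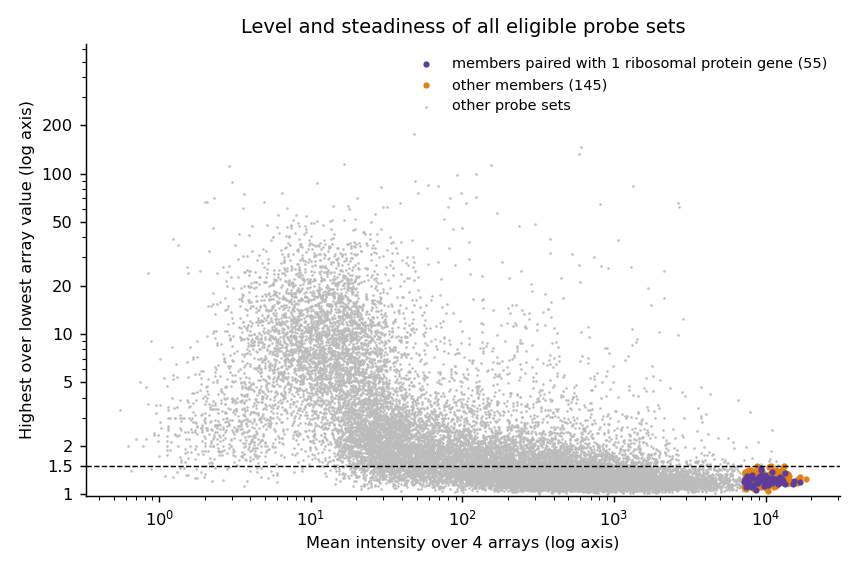
Each point is an eligible probe set, with its mean intensity over the 4 arrays on the horizontal log axis and its highest over lowest array value on the vertical log axis; the dashed line is the limit of 1.5. Members (purple and orange) lie at the bright end below the line, between mean intensities of 7163 and 18476, and the share of probe sets below the line grows with intensity.

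The limit on the ratio removed little at this end of the scale. Of the 200 brightest probe sets of any steadiness, 189 were within it and 11 beyond it. By mean intensity, 10.9% of probe sets under 100 were steady, 66.4% from 100 to 500, 84.7% from 500 to 1000, 87.5% from 1000 to 2000, 91.1% from 2000 to 5000 and 94.3% from 7163 upwards. The steady probe sets as a whole thus leaned to bright ones before any ranking.

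Of the 200 members, 76 were paired with 1 gene each, 22 with several genes and 102 are unnamed here. Plastid-encoded genes could be left out only where a probe set is paired with a gene, so some of the 102 could report one. Unnamed probe sets made up 51% of the members and 38.5% of all eligible probe sets. A probe set name ending in _s_at, which marks probes shared by several transcripts, occurred in 34 members (17%), against 4.10% of eligible probe sets. The annotation leaned to genes without a symbol: it paired 68.4% of the protein-coding genes named by locus only with a probe set, and 15.6% of those that carry a symbol. Of the 76 members with 1 gene, 66 were named by locus only. The named members are therefore a selection of the whole, and their make-up cannot be taken for that of the unnamed ones.

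Cytosolic ribosomal protein genes made up most of the named members. They were 55 of the 76, in 37 of 79 protein families: 29 of the large subunit, 21 of the small subunit and 5 of the P-stalk. A further 15 of the 22 members paired with several genes were paired with ribosomal protein genes only, which brought the families with a member to 48. The list of 229 ribosomal protein loci was written from general knowledge of the gene families, since the gene table gives 132 of the 133 measured ones no symbol. The exception is PGY1, an L10a gene of the large subunit. The table does name 38 of the other listed loci as ribosomal.

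Ribosomal protein genes filled more of the named probe sets with rising brightness from a mean intensity of 1000 upwards. They were 0.233% of the probe sets with 1 gene at mean intensities under 100, 0.156% from 100 to 500 and again 0.156% from 500 to 1000. Above that they were 1.02% from 1000 to 2000, 5.52% from 2000 to 5000, 32.2% from 5000 to 7163, and 68.8% from 7163 upwards. The last share counts 55 of 80 probe sets, steady or not.

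The brightest named member was AT5G20290, which encodes protein S8 of the small subunit. It stood at 18339 and 15361 on the shifted arrays and at 17954 and 15637 on the short day arrays. Both groups have a higher and a lower array, and their ranges overlap. The group means were 16850 ± 2106 after the shift and 16796 ± 1639 in short days (SD, n = 2 each), a fold of 1.00.

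P0, the protein that anchors the stalk to the large subunit, came from AT3G09200, the next brightest. It had 16549 and 13807 on the shifted arrays, against 15915 and 14964 on the short day arrays. L37, a small zinc-binding protein of the large subunit, came from AT1G52300, with 15918 and 13838 on the shifted arrays and 16062 and 14649 on the short day arrays. In both genes the shifted arrays enclose or overlap the short day arrays, and the group means differ by less than the gap between the 2 shifted arrays.

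AT3G60245 (L37a, large subunit) had 15771 and 11703 on the shifted arrays and 13778 and 12696 on the short day arrays. AT3G49910 (L26, large subunit) had 13592 and 12424 on the shifted arrays, against 14251 and 13296 on the short day arrays. AT1G67430 (L17, large subunit) had 14209 and 11872 on the shifted arrays, against 13203 and 12946 on the short day arrays. The widest spread of these is inside the shifted pair of AT3G60245, whose ratio of highest to lowest value was 1.35, and the groups overlap in each of the 3 genes.

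AT5G27700 (S21, small subunit) had 13800 and 11330 on the shifted arrays and 14137 and 12191 on the short day arrays. AT5G15200 (S9, small subunit) had 13233 and 11214 on the shifted arrays, against 13068 and 12088 on the short day arrays. AT1G15930 (S12, small subunit) had 13682 and 10762 on the shifted arrays, against 13179 and 11810 on the short day arrays. All 3 show replicate 2 of the shifted group as the lowest array, and the groups overlap.

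AT2G34480 (L18a, large subunit) had 13387 and 11037 on the shifted arrays, against 12410 and 11792 on the short day arrays. AT1G01100, which encodes the stalk protein P1, had 12824 and 11075 on the shifted arrays and 12526 and 11871 on the short day arrays. The exception among the 12 brightest named members is PRXR1, a peroxidase, with 12138 and 10986 on the shifted arrays and 14500 and 13750 on the short day arrays. It is the only 1 of these 12 that encodes no ribosomal protein and the only 1 whose groups do not overlap, being lower after the shift by a fold of 0.819.

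**Figure D2:**
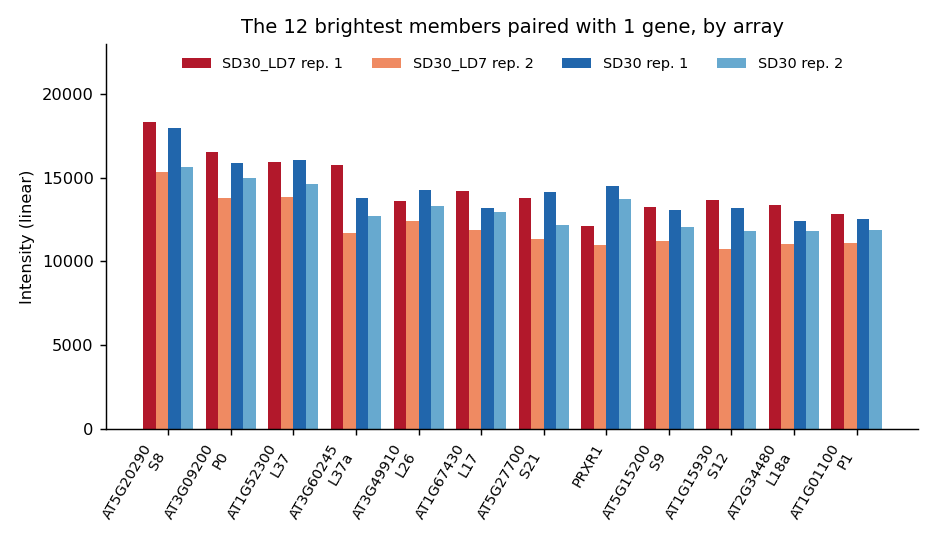
Bars are the linear intensities of the 12 brightest members paired with 1 gene on each array (shifted arrays in red, short day arrays in blue), with the protein family under each ribosomal gene. Replicate 2 of the shifted group is the lowest array in each of the 12, and only PRXR1 has both shifted arrays (12138 and 10986) below both short day arrays (14500 and 13750).

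Across the 21 small subunit members the fold of shifted over short day means ran from 0.813 to 1.07, with a median of 0.972. Both shifted arrays were below both short day arrays in 3 of them, AT4G34670 (S3a), AT3G02560 (S7) and AT3G60770 (S13), and the groups overlapped in the other 18. Across the 29 large subunit members the fold ran from 0.780 to 1.08, with a median of 0.985. Only AT3G09630 (L4) and AT3G14600 (L18a) had both shifted arrays lower, and 27 overlapped. In 0 of the 55 ribosomal members were both shifted arrays above both short day arrays. Of the eligible probe sets tested, 27.8% were above and 26.7% below. The rule chose the members by these same values, so nothing is read from these counts.

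The steadiest named member was AT2G47610, which encodes L7a of the large subunit. It had 8758 and 8313 on the shifted arrays and 8680 and 8644 on the short day arrays, a ratio of 1.05. Its paralog AT3G62870, also a member, had 11186 and 8961 on the shifted arrays, against 10989 and 9557 on the short day arrays. Paralogs are given side by side only, since each has its own probes and near-identical copies can share signal.

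In 17 families 2 or more genes were members, and 1 family, S7, had 3. Of the S7 genes, AT3G02560 had 9233 and 7355 on the shifted arrays and 10400 and 10012 on the short day arrays, a fold of 0.813. AT5G16130 had 10170 and 7884 on the shifted arrays, against 9807 and 9062 on the short day arrays, and AT1G48830 had 7953 and 6727 against 7381 and 6838. Only the groups of AT3G02560 are apart.

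The L18a pair shows the same. AT3G14600 had 8787 and 7475 on the shifted arrays and 10798 and 10040 on the short day arrays, a fold of 0.780, while the fold of AT2G34480 was 1.01. The difference between paralogs was not tested. The L4 genes, for a large subunit protein of the exit tunnel, had folds of 0.864 (AT3G09630) and 1.01 (AT5G02870).

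The ribosomal list holds genes that the rule did not choose, 78 of the 133 measured, and 63 of these were steady but less bright. In all, 118 of the 133 (88.7%) were within the ratio limit, where 51.0% of all eligible probe sets were. Of the 110 with a mean intensity of 1000 or more 107 were steady, where 89.2% of all eligible probe sets of that brightness were. The 55 members in each of these counts were steady by the rule. The shift was tested with limma over all 15922 probe sets that were bright enough, with Benjamini-Hochberg adjustment and a threshold of 0.05. Over all probe sets tested 15.0% were called, 6.80% as higher and 8.20% as lower after the shift.

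Of the 123 ribosomal protein genes tested, 1 was higher after the shift and 0 were lower in the same limma test, or 0.813% called. At an unadjusted p under 0.05 there were 8, of which 4 were higher and 4 lower. Among those with a mean intensity of 1000 or more, 1 of 110 was called, where 14.4% of all probe sets of that brightness were. That share was not even: 16.6% of eligible probe sets from 1000 to 2000 were called and 12.8% from 2000 to 5000. It was 9.64% from 5000 to 7163 and 3.77% from 7163 upwards, so the 14.4% is not matched to the brightness of the 110. The members' share in these counts was fixed by the rule, which kept probe sets with a small difference. With quantile normalization 4 of the 123 were called, and 4 without replicate 1 of the shifted group, where AT3G02560, AT3G14600 and AT5G28060 were also lower. The 68 tested genes that are no members had a median log2 difference of 0.03. Of these 68, 1 was called (1.47%), where 15.1% of all eligible probe sets tested that are no members were.

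Probe sets paired with several ribosomal protein genes numbered 24, and all 24 were steady, the 15 members among them by the rule. In the limma test 1 was higher after the shift and 0 were lower, with 2 at an unadjusted p under 0.05. The 1 called, 258937_at, is no member, and had 3998 and 3788 on the shifted arrays against 3060 and 2767 on the short day arrays. Its log2 difference was 0.42 ± 0.11 (SE; limma adjusted p = 0.021). It was not called with any 1 array left out (log2 difference from 0.35 to 0.49). Nor was it called with no filter on dim probe sets (limma adjusted p = 0.16) or without the intensity trend (0.11).

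The median log2 difference of the 123 ribosomal genes was -0.01, with quartiles of -0.08 and 0.05, and that of all probe sets tested was -0.002, with quartiles of -0.20 and 0.17. Within 0.2 of 0 on the log2 scale lay 107 of the 123 (87.0%), where 52.5% of all probe sets tested did. The 55 members among them had a small difference by the rule. Of the ribosomal genes that are no members and had a mean intensity of 1000 or more, 46 of 55 lay within 0.2 (83.6%), where 64.2% of the eligible probe sets of that brightness that are no members did. Both shifted arrays were above both short day arrays in 16 of the 123 and below them in 13. Of the eligible probe sets tested, 27.8% were above and 26.7% below. All 16 are among the 68 tested genes that are no members, and 5 of the 13 are members, so these counts too are partly set by the rule. These lists were chosen with the data known, so the counts describe them only.

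**Figure D3:**
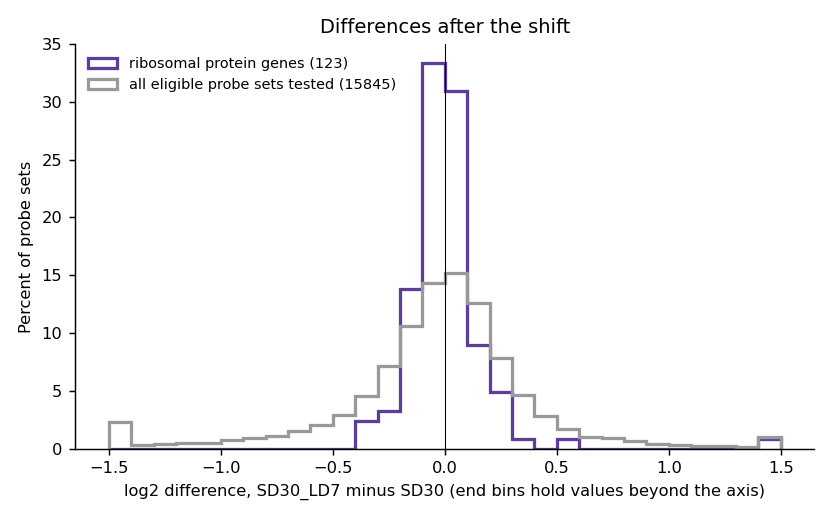
The horizontal axis is the log2 difference of shifted minus short day arrays in bins of 0.1, and the vertical axis is the percent of probe sets in each bin, for the 123 ribosomal protein genes (purple) and the 15845 eligible probe sets tested (grey). The end bins hold values beyond the axis. Of the ribosomal genes 107 lie within 0.2 of 0, the 55 members among them chosen for a small difference, and AT3G28500 is the only 1 in the right end bin.

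The 1 gene called among the 123 was AT3G28500, which encodes a form of the stalk protein P2 and is no member. It stood at 5648 and 4675 on the shifted arrays and at 562 and 459 on the short day arrays. Both shifted arrays are far above both short day arrays. The group means were 5162 ± 688 after the shift and 510 ± 72.3 in short days (SD, n = 2 each), a fold of 10.1 and a log2 difference of 3.34 ± 0.13 (SE), with a limma adjusted p of 1.02e-08. The call was lost with no filter on dim probe sets (adjusted p = 0.057), and over the other 12 alternatives the adjusted p ran from 7.00e-10 to 0.00078.

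All 13 listed genes of the P-stalk were measured, and 12 of them were steady. The 2 P2 members, AT2G27720 and AT2G27710, are neighbours in the TAIR10.1 gene table and are the only neighbouring pair among the 76 named member genes. AT2G27720 had 10166 and 7907 on the shifted arrays, against 10166 and 9088 on the short day arrays. AT2G27710 had 9136 and 8105 on the shifted arrays, against 9546 and 8854 on the short day arrays. In both, the groups overlap, unlike those of AT3G28500.

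The other P2 genes were steady at lower signal. AT3G44590 had 5443 and 5319 on the shifted arrays, against 5597 and 5644 on the short day arrays. AT5G40040 had 242 and 234 on the shifted arrays, against 172 and 165 on the short day arrays, a log2 difference of 0.50 ± 0.17 (SE) that did not pass the test (limma adjusted p = 0.079). Its groups do not overlap, but its ratio of 1.47 is inside the limit.

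P1 proteins pair with P2 on the stalk. Besides AT1G01100, AT5G47700 was a P1 member, with 9603 and 7956 on the shifted arrays and 10146 and 8284 on the short day arrays. AT4G00810, a P1 gene below the members in signal, had 4740 and 4524 on the shifted arrays, against 4562 and 4412 on the short day arrays. No P1 gene passed the test, and in these 2 the groups overlap.

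P3 is a stalk protein known from plants. Its genes AT5G57290 and AT4G25890 had folds of 1.09 and 1.14, with limma adjusted p-values of 0.55 and 0.28. The further P0 genes, AT3G11250 and AT2G40010, had folds of 1.01 and 1.16, with adjusted p-values of 0.979 and 0.278. Across the stalk, AT3G28500 was thus the gene whose difference passed the test, in these 4 arrays.

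**Figure D4:**
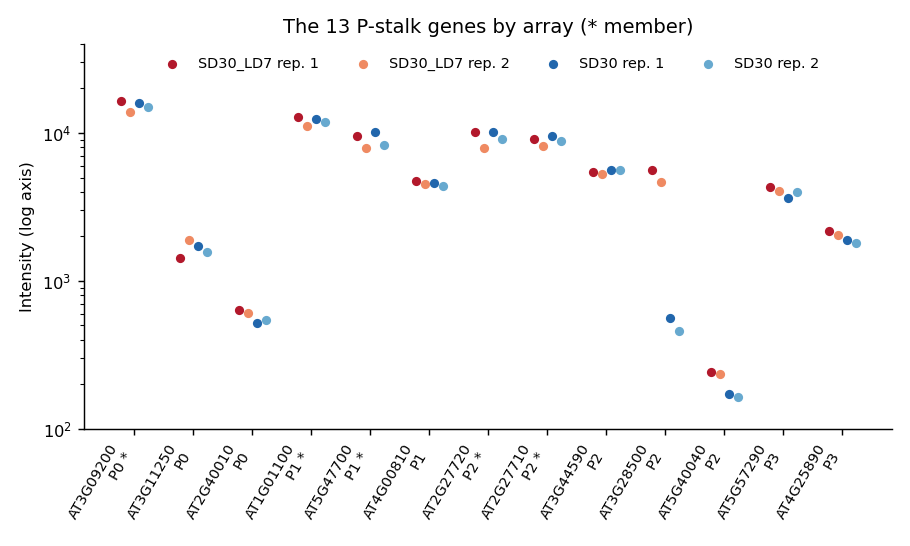
Points are the intensities of the 13 P-stalk genes on each array, on a log axis, with shifted arrays in red left of short day arrays in blue; a star marks a member. In 12 genes the 4 points lie within 1.5-fold of each other, and in AT3G28500 the shifted arrays (5648 and 4675) stand apart from the short day arrays (562 and 459).

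Of the 15 ribosomal genes beyond the ratio limit, 9 were too dim to test, and 1 more that was too dim, AT5G43640 (S15), was within the limit. The 6 tested ones were AT3G28500 and 5 others that did not pass. AT5G28060 (S24) had 4963 and 3880 on the shifted arrays, against 6008 and 5116 on the short day arrays, a log2 difference of -0.34 ± 0.14 (SE; limma adjusted p = 0.141). AT4G39200 (S25) had 7281 and 5569 on the shifted arrays, against 6163 and 8486 on the short day arrays. Its highest and its lowest array thus straddle both groups. AT2G47570 (L18), AT1G36240 (L30) and AT2G16360 (S25) had mean intensities of 53.2, 83.1 and 71.4, where most probe sets were not steady.

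Of the S15 genes on the array, 5 were measured and 2 were steady, and 4 of them were too dim to test, with mean intensities from 22.2 to 30.1. Such a value near the floor of 23.5 says only that this probe set gave little signal.

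Translation factors carry amino acids to the ribosome and move it along the messenger. The brightest member paired with several genes, 247644_s_at, belongs to the 4 genes of elongation factor eEF1A, and had 17405 and 14574 on the shifted arrays and 18083 and 15598 on the short day arrays. AT5G19510, of the exchange factor eEF1B that reloads eEF1A, had 11987 and 9956 on the shifted arrays, against 11738 and 11374 on the short day arrays. In both the groups overlap. Of the 4 translation factor genes tested, 1 was higher after the shift and 0 lower (3 of 4 at an unadjusted p above 0.05), where 6.80% of all probe sets tested were higher. It was AT5G12110, another eEF1B gene and no member, with 473 and 535 on the shifted arrays and 312 and 289 on the short day arrays (log2 difference 0.74 ± 0.14 (SE), limma adjusted p = 0.0032). The call was lost without replicate 2 of either group (adjusted p = 0.060 without the shifted and 0.058 without the short day array), and when dim probe sets were kept (0.12).

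Histones H3 and H4 are known only through probe sets paired with several genes, since their copies are nearly identical. The H4 member 247692_s_at, paired with 8 genes, had 14222 and 11821 on the shifted arrays, against 12525 and 11784 on the short day arrays. The members 252849_at and 252824_at are each paired with the 3 genes of H3.3, the histone H3 form laid down outside replication. The first of them had 9441 and 8452 on the shifted arrays against 8703 and 8150 on the short day arrays, and the second 8780 and 8365 against 7886 and 7952. Both shifted arrays of 252824_at are above both short day arrays, and the other histone members overlap. Of 13 histone probe sets tested in the list, 12 were steady and 0 were called by limma, with 1 at an unadjusted p under 0.05, where 15.0% of all probe sets tested were called.

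The cytoskeleton was represented by TUA6, an alpha tubulin, with 9980 and 7901 on the shifted arrays and 8311 and 7390 on the short day arrays. A further member, 245915_s_at, is paired with 2 alpha tubulin genes. Of the 8 tubulin and actin genes tested, 2 were higher after the shift and 0 lower, with 4 at an unadjusted p under 0.05, where 6.80% of all were called higher. ACT11, an actin of reproductive tissue, had 607 and 672 on the shifted arrays and 377 and 359 on the short day arrays (log2 difference 0.80 ± 0.13 (SE), limma adjusted p = 0.0011), and was called with any 1 array left out but not with no filter on dim probe sets (adjusted p = 0.092). TUB7, a beta tubulin, had 4056 and 4109 on the shifted arrays, against 3338 and 3038 on the short day arrays, a log2 difference of 0.36 ± 0.11 (SE; limma adjusted p = 0.043), and was not called with any 1 array left out (adjusted p from 0.11 to 0.29), with no filter (0.16), without the intensity trend (0.15) or with the floor at the 40th percentile (0.058). Neither is a member, and TUA6 itself overlaps between the groups.

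Of the glycolysis list, both measured genes were members. GAPC2, the cytosolic glyceraldehyde phosphate dehydrogenase, had 10515 and 9172 on the shifted arrays and 10046 and 9467 on the short day arrays. TPI, the triose phosphate isomerase, had 7797 and 7219 on the shifted arrays, against 7959 and 6750 on the short day arrays. The short day arrays of GAPC2 lie inside the shifted pair, and the shifted arrays of TPI inside the short day pair.

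Of the 76 named members 21 encode no ribosomal protein, and 17 of these are in none of the lists. These 21 had ratios from 1.12 to 1.49 and folds from 0.819 to 1.29. Their groups overlapped in 10, with both shifted arrays above in 4 and below in 7. They overlapped in 50 of the 55 ribosomal members. Groups did not overlap in 54.4% of the eligible probe sets tested, but the same values chose the members, so nothing is read from these counts.

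SAMDC, the S-adenosylmethionine decarboxylase of polyamine synthesis, was the steadiest of the 21, at 8611 and 7782 on the shifted arrays and 8703 and 7881 on the short day arrays. AT1G62500, whose ratio of 1.49 was the highest of any named member, had 10670 and 8988 on the shifted arrays and 7170 and 8067 on the short day arrays. AT4G29030 had 13251 and 11585 on the shifted arrays, against 9427 and 9974 on the short day arrays. SAMDC overlaps between the groups, and in the other 2 genes both shifted arrays are above, by folds of 1.29 and 1.28.

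CYTC-1, the mobile electron carrier of mitochondrial respiration, had 8115 and 7483 on the shifted arrays and 7051 and 6839 on the short day arrays. LHCB4.1, a light harvesting protein of photosystem II, had 8232 and 7461 on the shifted arrays, against 10100 and 8490 on the short day arrays. APA1, an aspartic proteinase, had 7659 and 6949 on the shifted arrays, against 8228 and 8206 on the short day arrays. The shifted arrays were both above for CYTC-1 and both below for the other 2.

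AT3G58610, which encodes an enzyme of branched-chain amino acid synthesis, had 8021 and 8646 on the shifted arrays and 9451 and 8978 on the short day arrays. AT5G20890, a subunit of the CCT chaperonin that folds tubulin and actin, had 7792 and 7407 on the shifted arrays, against 8890 and 8216 on the short day arrays. Both have the shifted arrays below. ECS1 had 11505 and 8923 on the shifted arrays, against 10680 and 9462 on the short day arrays, and so overlaps.

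The limit on the ratio did not keep every difference under the test's threshold. By limma over all probe sets tested, 3 of the 200 members were called (1.5%), 1 as higher and 2 as lower after the shift, where 15.0% of all were. Since the rule chose the members by these same values, nothing is read from that count. The 3 are unnamed here, so it is not known if any of them reports a plastid-encoded gene, which the rule meant to leave out. Probe set 258054_at had 10852 and 10764 on the shifted arrays and 8101 and 7961 on the short day arrays, a log2 difference of 0.43 ± 0.12 (SE; adjusted p = 0.035). Probe set 250991_at had 11813 and 10375 on the shifted arrays, against 15474 and 15032 on the short day arrays, a log2 difference of -0.46 ± 0.14 (SE; adjusted p = 0.042). Probe set 244979_at had 7063 and 6636 on the shifted arrays, against 9335 and 8811 on the short day arrays, a log2 difference of -0.41 ± 0.12 (SE; adjusted p = 0.042). With 1 array left out, the only call among these 3 was that of 250991_at without replicate 1 of the shifted group (adjusted p = 0.022).

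Groups did not overlap in 49 of the 200 members (24.5%), where they did not in 54.4% of the eligible probe sets tested. Both shifted arrays were above in 20 members, against 27.8% of those probe sets, and below in 29, against 26.7%. These shares too are set by the rule.

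The members moved together from array to array. As log2 deviations from each member's own mean, the median was 0.10 on replicate 1 and -0.13 on replicate 2 of the shifted group, and 0.06 on replicate 1 and -0.03 on replicate 2 of the short day group. Replicate 1 of the shifted group held the highest value of 118 members, and replicate 2 held the lowest of 149. In 196 members replicate 1 of the shifted group was above replicate 2. The median absolute log2 difference was 0.23 between the 2 shifted arrays, 0.09 between the 2 short day arrays and 0.08 between the group means. The 2 shifted arrays differed by more than the group means in 164 of the 200 members, and the 2 short day arrays in 114. Single arrays are set here against means of 2 arrays, which vary less. The rule also limited all of these differences, so nothing is read from these counts.

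**Figure D5:**
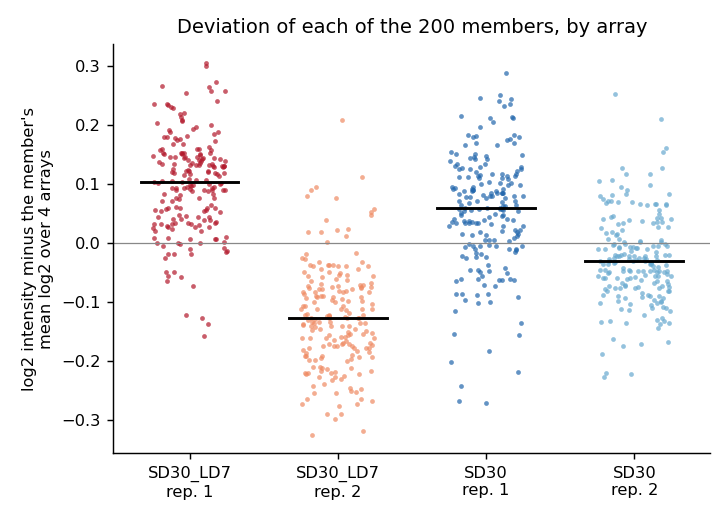
Each point is 1 of the 200 members, spread sideways for visibility, and the vertical axis is its log2 intensity minus its own mean over the 4 arrays; black bars are medians. The medians are 0.10 and -0.13 on the shifted arrays and 0.06 and -0.03 on the short day arrays. The rule limited all of these deviations.

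The median intensity over all probe sets that are no control did not share these offsets. It was 207 on replicate 1 and 211 on replicate 2 of the shifted group. In the short day group it was 213.9 on replicate 1 and 220.5 on replicate 2. Replicate 1 thus had the lower median in each group, where the members were higher. Levels of brightness in between were not looked at. Over the 212 eligible probe sets at least as bright as the last member, the median deviations were 0.10 and -0.13 on the shifted arrays. On the short day arrays they were 0.06 and -0.03. Of these 212, 200 are the members, so these medians had to lie close to the members' own. With quantile normalization, the members' medians were 0.02 and 0.01 on the shifted arrays and -0.01 and -0.01 on the short day arrays. The median ratio of highest to lowest value was then 1.12, and 1 of the 200 members passed the limit, at 1.56. Quantile normalization gives each rank of brightness the same value on every array, so medians of the brightest probe sets had to come near 0. With arrays scaled to a common median instead, the median ratio was 1.25, against 1.22 as deposited.

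RNA integrity was read from control transcripts probed near both ends. Their 3' over 5' signal for actin was 8.27 and 4.64 on the shifted arrays and 6.51 and 5.72 on the short day arrays. For GAPDH it was 2.65 and 1.57 on the shifted arrays and 1.78 and 2.04 on the short day arrays. For ubiquitin it was 3.27 and 2.36 on the shifted arrays and 3.14 and 3.44 on the short day arrays. A further actin set gave 2.32 and 1.47 on the shifted arrays and 1.61 and 1.99 on the short day arrays. The controls differ in how they order the arrays, but replicate 2 of the shifted group was lowest in each of these 4. The part of RNA integrity in the offsets was not tested.

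The edge of the rank lay within a dense range of signal. The last members were 245915_s_at, with a mean intensity of 7221, and 252561_at, with 7163. The brightest steady probe sets left out were UBC28, which encodes a ubiquitin-conjugating enzyme, with 7152, and 260746_at, with 7149. UBC28 had 7454 and 6543 on the shifted arrays, against 7818 and 6791 on the short day arrays, and the groups overlap.

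At the ratio limit, the members 252693_s_at and 250991_at had ratios of 1.488 and 1.491, and the bright probe sets 265033_at and 252056_at, just beyond it, had 1.508 and 1.521. The 252056_at probe set had 14302 and 9404 on the shifted arrays and 12272 and 12208 on the short day arrays, so its spread lies inside the shifted group. The unnamed member 257313_at had the lowest ratio of all, 1.051, with 10637 and 10123 on the shifted arrays and 10639 and 10154 on the short day arrays.

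In all, 12 probe sets were brighter than the last member but beyond the limit, 4 of them paired with 1 gene. LCR69, of the small cysteine-rich proteins related to defensins, had 14752 and 12104 on the shifted arrays and 10710 and 9170 on the short day arrays. AT4G22490 had 8259 and 7510 on the shifted arrays, against 14023 and 13501 on the short day arrays, and AT5G01870 had 4785 and 3652 against 11933 and 10919. ATLP-1, a thaumatin-like protein, had 10268 and 8563 on the shifted arrays and 5260 and 5510 on the short day arrays. In all 4 the groups stand apart, and none encodes a ribosomal protein. Unnamed probe sets left out with a clear gap were 261438_at, at 7228 and 6260 on the shifted arrays against 15763 and 14840 on the short day arrays, and 248128_at, at 6484 and 5615 against 11574 and 11773.

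Genes used as references in Arabidopsis expression assays formed a list of 20, of which 6 were measured. All 6 were steady, 1 (GAPC2) was a member, and 0 were called by limma (0 at an unadjusted p under 0.05), where 15.0% of all probe sets tested were. UBC21, a ubiquitin-conjugating enzyme, had 1705 and 1640 on the shifted arrays and 1438 and 1634 on the short day arrays. Its log2 difference was 0.13 ± 0.11 (SE; limma adjusted p = 0.519). The SAND family gene had 796 and 926 on the shifted arrays, against 740 and 702 on the short day arrays, a log2 difference of 0.25 ± 0.12 (SE; limma adjusted p = 0.198). In UBC21 and the SAND family gene both shifted arrays are above both short day arrays, in UBC21 by only 1640 against 1634. The same holds for 27.8% of the eligible probe sets tested.

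The TIP41-like gene had 622 and 651 on the shifted arrays and 456 and 655 on the short day arrays, a ratio of 1.44 that comes from 1 short day array. The expressed protein gene of the list had 1197 and 1269 on the shifted arrays, against 1292 and 1544 on the short day arrays. In this gene both shifted arrays are below both short day arrays, as they are in 26.7% of the eligible probe sets tested. The F-box family gene had 342 and 395 on the shifted arrays, against 353 and 353 on the short day arrays. Over these 6 genes the ratios ran from 1.15 to 1.44, inside the range of the members, at levels from 361 to 9800.

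The 76 named member genes were spread over all 5 chromosomes, with 14 on chromosome 1, 15 on chromosome 2, 23 on chromosome 3, 7 on chromosome 4 and 17 on chromosome 5. No gene had 2 probe sets among the 76. Among the 98 members paired with any gene, 9 loci were reached by more than 1 member, so some members share a target.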

How the data were processed

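Total RNA of dissected apices was hybridised to 1 array per sample, and the labels' growth conditions gave the groups. The authors deposited 1 linear intensity per probe set and array, scaled to a common level. The software behind it was not given in the sources used here. Precision is limited by the number of arrays. Names came from a platform table, updated to TAIR10.1 symbols: 13513 had 1 gene, 503 several, and 8730 are unnamed. Intensities under 23.5, the 20th percentile, were set to that floor, log2 was taken, and the dimmest 30 percent were dropped, leaving 15922. The test was limma 3.58.1 under R 4.3.3 (lmFit, eBayes with an intensity trend, two-sided, 2 residual and 9.905 prior degrees of freedom), Benjamini-Hochberg adjusted, threshold 0.05. The procedure was tested on simulated data. Figures used matplotlib 3.10.9 in Python 3.11.15.

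The members and all lists were chosen with earlier results of these data known. Lists fixed by words in gene names classed only 7 members, since most names are loci, so lists by locus were written later and used instead. The naming rule covered the 12 brightest members with 1 gene, the 5 lowest and 5 highest ratios and the probe sets at both edges. It also covered the 8 brightest left out by the limit and the reference genes. Some unnamed probe sets that it covered, of the lowest and highest ratios and of the 8, are not given above. Any other gene or probe set named was picked with its values in view. The alternatives tried are a replicate block, each array left out in turn, other scalings, floors and filters, no trend, and other limits, ranks and sizes of the set.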

Additional observations from a re-analysis of the deposited data

Results flagged for a closer look

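One of the array's controls, AFFX-r2-At-U12639_at, enters no comparison above. Its mean was 268.65 on the shifted arrays (230.4 and 306.9) and 17.95 on the short day arrays (25.2 and 10.7). It drew attention because a control, which no comparison uses, read above the level of the short day arrays in both shifted arrays. The members did not show such a gap, with folds from 0.727 to 1.35 set by their rule. The cause was not tested.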

How the results depend on the processing

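With 2 arrays a group, the number called depended on the filter and on each array. Against 2388 probe sets called, 152 were called with no filter on dim probe sets and 1532 without the intensity trend. Leaving out 1 array gave 1058 to 1494, where the lone array of a group is assumed to vary like the other group. Equal replicate numbers share only a number (deviations correlated at 0.05), and the replicate block gave 2741 calls. Against 1 ribosomal protein gene, AT3G28500, the replicate block called 4, adding AT3G13580, AT3G14600 and AT5G28060 as lower. Quantile normalization called 4, adding AT3G14600 as lower and AT5G40040 and AT5G67510 as higher. Leaving out 1 array called 1 to 4: without shifted replicate 1, AT3G02560, AT3G14600 and AT5G28060 were lower too. With no filter 0 were called by limma (8 at an unadjusted p under 0.05), and AT3G28500 had an adjusted p of 0.057. The members called, 3 of 200, numbered 9 with the replicate block and 11 with quantile normalization. They numbered 2 with the dimmest 50 percent dropped. With arrays scaled to a common median, the floor at the 40th percentile, no filter or no intensity trend, 0 members were called. Over the 13 alternatives the log2 difference of AT3G28500 was 3.19 to 3.48. The 13 other choices of members shared 158 to 198 of the 200, and the ribosomal members numbered 52 to 55 with 200 members, 32 with 100 and 75 with 400. Counting them by words in gene names gave 1, and this and a narrower exclusion of plastid genes were added after seeing the data. Promoter motifs and protein lengths were not run, for want of sequences.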
